A study of Xenopus laevis with 32 samples.

Results

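The genes fn1.S and tgfbi.L code for adhesive matrix proteins and were followed in amputated tails of Xenopus laevis, the African clawed frog. Fibronectin, the fn1 product, is part of the provisional matrix, the temporary scaffold laid down in a wound. Both genes are grouped here under that name. They were chosen by their levels over the groups in earlier results of these same data: of 3 genes named, fn1.L, fn1.S and tgfbi.L, the last 2 were analysed among the 27467 genes listed in both deposited count tables, and fn1.L is not analysed here. The endings .L and .S mark the copies of a gene on the long and the short chromosome set of this allotetraploid frog. Bulk RNA of tails, each library from 20 embryos, was sequenced 0, 0.5, 6 and 72 h after the cut, once for the regeneration period, in which a cut tail regrows, and once for the refractory period, in which it does not. The 8 groups of period and time held 4 libraries each, A to D, described as biological repeats. All 32 libraries came from amputated tails, and no strain or genotype is named. No group held uncut tails of a later time, so a change from 0 h includes any normal growth over the same hours. The extraction protocol names the regenerative stage for the refractory libraries too, so their stage is not settled.

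Fibronectin, the product of fn1, is a large secreted glycoprotein that cells assemble into fibrils through integrins, above all the integrin of the α5 and β1 chains, which binds its Arg-Gly-Asp (RGD) motif. In mammals one form is made by the liver and enters the blood clot, and another is made by the cells of the tissue itself. The product of tgfbi, transforming growth factor beta induced protein, is a secreted adhesion protein that binds collagens and integrins and was first found in human cells as a gene switched on by TGF-beta. Clot, early wound matrix and the later bed of a regenerating appendage all hold such adhesive proteins.

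Before the results, 5 libraries need naming. The authors' normalized tables hold 27 of the 32 libraries. Those they lack are library A at 0 and at 0.5 h and library B at 6 h of the regeneration period, and library A at 0.5 and at 72 h of the refractory period. Each of the 5 had the highest sum of its group for the 28 genes marking retina or lens and for the 18 marking liver, and all but refractory 0.5 h A had the lowest sum for the 19 marking mesenchyme. Levels are given as CPM, read counts scaled to the size of the library. Retina and lens genes summed to between 635 and 1700 CPM in every library, although the labelled tissue is tail, and 16 skeletal muscle genes to between 21700 and 85300 CPM. Total counts per library ran from 2646237 to 4022871 in the regeneration period and from 1868637 to 3567797 in the refractory period. Changes of fn1.S and tgfbi.L are given with all libraries and, where the 27 give another call or a clearly different value, with these too.

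fn1.S had its highest group mean at 72 h in both periods. At 0 h it stood in the regeneration period at 833, 780, 763 and 779 CPM in libraries A to D (mean 789 ± 30.3, SD, n = 4). At 0.5 h it stood at 916, 737, 883 and 741 CPM (819 ± 93.7), values on both sides of those at 0 h. At 6 h it stood at 1010, 839, 1150 and 1110 CPM (1030 ± 139), and all 4 libraries lay above the highest 0 h value of 833. The lowest of them, 839 CPM, came from library B, one of the 5 named above. At 72 h it stood at 2110, 2190, 1680 and 1370 CPM (1840 ± 384), so that the lowest of these libraries lay above the highest at 6 h. The log2 change from 0 h was 0.05 ± 0.21 (SE of the fit) at 0.5 h, 0.38 ± 0.21 at 6 h and 1.22 ± 0.21 at 72 h, and 2.33-fold in group means at 72 h.

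In the refractory period fn1.S was flatter up to 6 h. It stood at 759, 753, 722 and 710 CPM at 0 h (736 ± 23.8), and at 763, 719, 840 and 656 CPM at 0.5 h (744 ± 77.6). At 6 h the 4 libraries lay within a narrow band of 777, 782, 756 and 756 CPM (768 ± 13.8), which overlaps 0 h. All 4 also lay under the lowest regeneration library at 6 h, 839 CPM. The direct difference between the periods at 6 h was -0.42 ± 0.21 in log2 units and was called only with 27 libraries, as given below. At 72 h fn1.S stood at 894, 2360, 2420 and 2900 CPM (2140 ± 867). Libraries B, C and D were far above every earlier library, while library A, one of the 5, was above the highest earlier one by little, 894 against 840 CPM. The log2 change from 0 h was 0.02 ± 0.21 at 0.5 h, 0.06 ± 0.21 at 6 h and 1.54 ± 0.21 at 72 h. Without the 5 libraries the 72 h mean was 2560 ± 298 CPM (n = 3) and its log2 change 1.79 ± 0.10.

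tgfbi.L was higher at 72 h than at any earlier time in regeneration tails. It stood at 397, 473, 517 and 394 CPM at 0 h (445 ± 60.5), and at 425, 418, 412 and 432 CPM at 0.5 h (422 ± 8.61). At 6 h it stood at 505, 358, 614 and 443 CPM (480 ± 108), with library B again the lowest of its group. All 3 of these groups overlap one another. At 72 h it stood at 1430, 1510, 1340 and 1250 CPM (1380 ± 111), 3.11-fold the 0 h mean and above every earlier library. The log2 change from 0 h was -0.08 ± 0.22 at 0.5 h, 0.11 ± 0.22 at 6 h and 1.63 ± 0.23 at 72 h.

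Refractory tails had close to the same course of tgfbi.L. It stood at 368, 483, 527 and 460 CPM at 0 h (459 ± 66.9), at 528, 525, 562 and 489 CPM at 0.5 h (526 ± 29.6), and at 459, 567, 503 and 466 CPM at 6 h (499 ± 49.4). These 3 groups overlap. The 0.5 h libraries all lay above the 4 regeneration libraries of that time, of which the highest was 432 CPM. The direct difference between the periods at 0.5 h was 0.32 ± 0.22 in log2 units and was not called. At 72 h it stood at 493, 1460, 1590 and 1670 CPM (1300 ± 547), with library A at the level of the first hours and the other 3 above every earlier library. The log2 change from 0 h was 0.19 ± 0.22 at 0.5 h, 0.12 ± 0.22 at 6 h and 1.51 ± 0.23 at 72 h, and at 72 h it was 1.77 ± 0.10 without the 5 libraries.

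**Figure D1:**
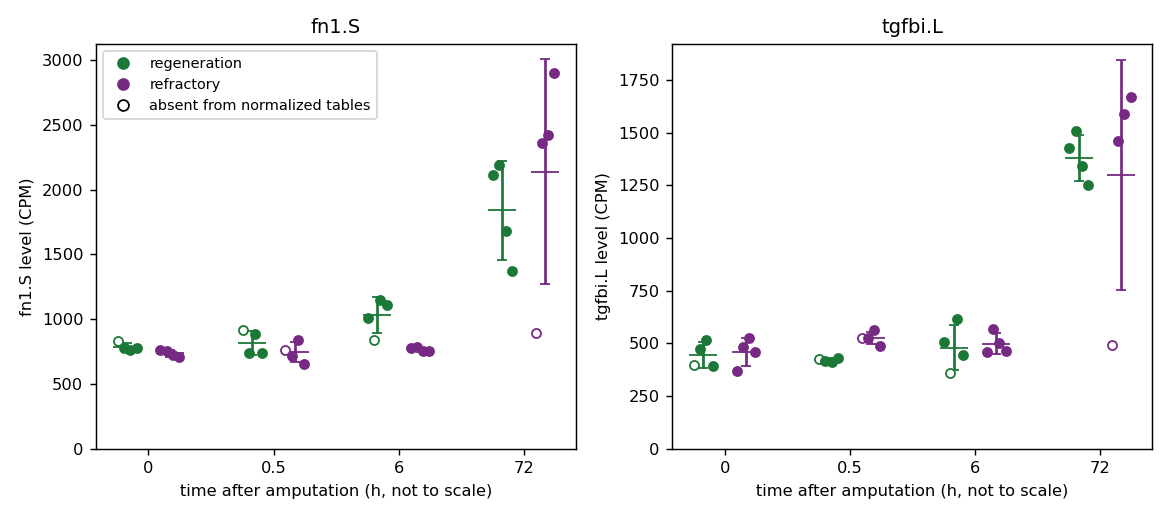
Level of fn1.S and tgfbi.L in CPM (linear axes from 0) in each of the 32 libraries, by time after amputation and period. Points are libraries A to D from left to right, bars are the mean and SD of 4 libraries, and open points are the 5 libraries absent from the authors' normalized tables. The 72 h libraries lie apart from all others except the open refractory point, at 894 CPM for fn1.S and 493 CPM for tgfbi.L.

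Because these genes were selected on their levels in these data, the levels and changes describe them and carry no p. Whether they passed the threshold is given here and below as part of this description. A pass is no support, since the selection used the same values. Nor is a lack of overlap between groups, and the share of all genes without such overlap was not counted. Against 0 h, both passed an adjusted p of 0.05 in the model of all genes at regeneration 72 h, where 3.85% of 21231 genes did, and at refractory 72 h, where 1.65% did. Neither passed at 0.5 h, where 0.0612% of genes did in regeneration and 0.132% in refractory tails, nor at 6 h, where 0.273% and 2.45% did. Against 6 h, both also passed at 72 h, with log2 changes of 0.84 ± 0.21 for fn1.S and 1.53 ± 0.23 for tgfbi.L in regeneration tails (1.54% of genes) and of 1.48 ± 0.21 and 1.39 ± 0.23 in refractory tails (2.26%). With 27 libraries both passed at 72 h against 0 h as well (5.18% of genes in regeneration and 3.48% in refractory tails), and fn1.S also passed at regeneration 6 h (log2 change 0.48 ± 0.10), where 1.51% of genes did.

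The order of the 8 groups differed between the genes. In descending order of mean fn1.S came refractory 72 h, regeneration 72 h, regeneration 6 h, regeneration 0.5 h, regeneration 0 h, refractory 6 h, refractory 0.5 h and refractory 0 h. Among neighbours in this order only regeneration 72 h and regeneration 6 h did not overlap. For tgfbi.L the order began with regeneration 72 h and refractory 72 h, and every pair of neighbours overlapped, refractory 72 h and refractory 0.5 h through library A alone. The spread within a group was smallest for fn1.S at refractory 6 h, with an SD of 1.79% of the mean, and largest at refractory 72 h, with 40.5% for fn1.S and 42% for tgfbi.L.

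Set side by side, the periods had the following differences. At 6 h the refractory response of fn1.S minus that in regeneration tails was -0.32 ± 0.29 in log2 units, and at 72 h it was 0.32 ± 0.29. Neither passed over all genes, where 0.0612% and 0.466% did, and at 0.5 h the difference was -0.04 ± 0.29, with 0% of genes past the threshold. With 27 libraries these differences were -0.42 ± 0.14 and 0.55 ± 0.14, and the second passed, as 0.83% of genes did. In those libraries fn1.S at 72 h lay between 2360 and 2900 CPM in refractory and between 1370 and 2190 CPM in regeneration tails. For tgfbi.L the differences were 0.01 ± 0.32 at 6 h and -0.13 ± 0.32 at 72 h, and the latter had the other sign, 0.19 ± 0.14, with 27 libraries. Compared directly at each time, refractory minus regeneration fn1.S was -0.10 ± 0.21 at 0 h, -0.14 ± 0.21 at 0.5 h, -0.42 ± 0.21 at 6 h and 0.22 ± 0.21 at 72 h, and none of these passed, as 0.669%, 1.18%, 1.83% and 1.51% of genes did. With 27 libraries the last 2 were -0.49 ± 0.10 and 0.48 ± 0.10 and passed, as 3.47% and 2.4% of genes did. For tgfbi.L the direct differences ran from -0.08 ± 0.22 at 72 h to 0.32 ± 0.22 at 0.5 h, and none passed with 32 or 27 libraries.

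fn1.S and tgfbi.L were high in the same libraries. As a description, log2(CPM + 1) of fn1.S and tgfbi.L correlated at r = 0.924 over 32 libraries and 0.938 over 27, and both have their step at 72 h. Deviations from the group means correlated at r = 0.851 over 32 libraries, but at 0.422 over the 28 libraries outside refractory 72 h and at 0.338 over the 27. Refractory 72 h A, low in both genes, is among the libraries left out in both of the lower values. Both genes were chosen by their levels over these same groups, so a high r between them is no support. Libraries also share the scaling that makes their CPM, and these values carry no p.

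**Figure D2:**
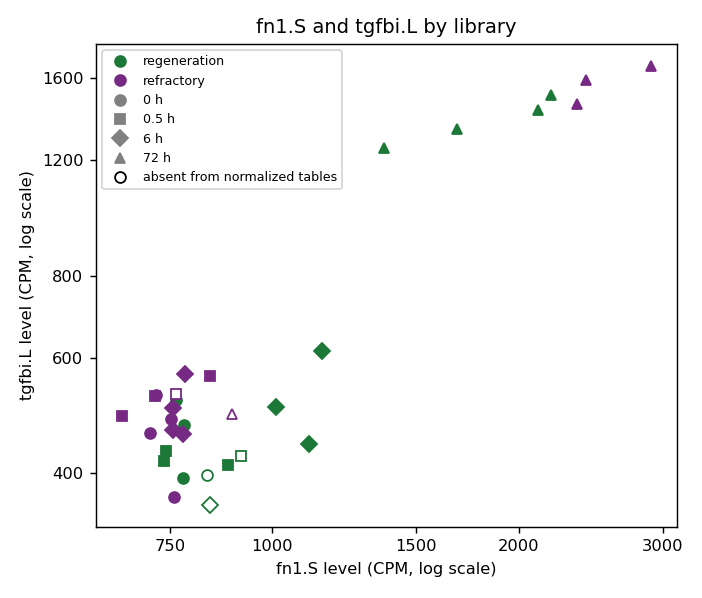
Level of tgfbi.L against fn1.S in each library, both in CPM on log axes. Colour gives the period, shape the time, and open symbols the 5 libraries absent from the normalized tables. The 72 h libraries form the upper right group except refractory 72 h A, which lies among the earlier times, and 3 of the 4 regeneration 6 h libraries, at 1010 to 1150 CPM of fn1.S, lie to the right of the other early ones.

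The ratio of the genes had another course of group means in each period, a difference that was not tested. The log2 ratio of tgfbi.L to fn1.S in CPM, which library scaling cannot move, averaged -0.83 ± 0.24 (SD, n = 4) at regeneration 0 h, -0.95 ± 0.18 at 0.5 h, -1.11 ± 0.19 at 6 h and -0.39 ± 0.20 at 72 h. The 72 h libraries lay between -0.56 and -0.13 and the 6 h libraries between -1.32 and -0.91. The 0 h libraries lay between -1.07 and -0.56, so the ranges at 0 and 72 h met at -0.56. In refractory tails the ratio averaged -0.69 ± 0.25 at 0 h, -0.50 ± 0.07 at 0.5 h, -0.63 ± 0.13 at 6 h and -0.74 ± 0.11 at 72 h, with overlapping groups at 0 and 72 h. Refractory 72 h A, at -0.86, was close to its group although both its levels were low. The ratio is not corrected for transcript length, so only its change between groups can be read.

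Markers of other tissues moved with time as well. The 16 skeletal muscle genes summed to between 49600 and 70100 CPM at regeneration 0 h and to between 21700 and 34200 CPM at 72 h, and in refractory tails to between 58800 and 85300 and between 34500 and 48300 CPM. The 19 mesenchyme genes lay between 10100 and 21800 CPM at regeneration 0 h and between 21000 and 24900 CPM at 72 h, whereas in refractory tails they lay between 17700 and 36800 CPM at 0 h and between 9440 and 18500 CPM at 72 h. The mesenchyme ranges at 0 and 72 h overlap in both periods, and without library A the regeneration 0 h sums lay between 19100 and 21800 CPM and the refractory 72 h sums between 15900 and 18500 CPM. The part of these tissue shares in the levels was not tested, and in bulk tails more cells of a type and more RNA per cell cannot be told apart.

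A liver source bears on fibronectin in particular. The 18 liver genes summed to between 2590 and 4880 CPM at regeneration 0 h and between 2360 and 2940 CPM at 72 h. In refractory tails they summed to between 3510 and 4430 CPM and between 3280 and 4980 CPM. The part of liver RNA in the fn1.S level was not tested. Of the other marker lists, 11 basal epidermis genes lay between 675 and 1230 CPM at regeneration 0 h and between 951 and 1370 CPM at 72 h. At regeneration 6 h their sum was 1470, 1610 and 1500 CPM in libraries A, C and D. Library B, absent from the normalized tables, had 594 CPM. In refractory tails the basal epidermis genes lay between 714 and 1480 CPM at 0 h, between 2100 and 2740 CPM at 6 h and between 685 and 1300 CPM at 72 h. The 12 notochord genes lay between 4900 and 6150 CPM at refractory 0 h and between 3540 and 4320 CPM at 72 h, without overlap, and between 3900 and 6060 and between 3960 and 4720 CPM in regeneration tails. The regeneration ranges overlap through 0 h library A alone, at 3900 CPM, which is absent from the normalized tables. Libraries B, C and D of that group had 6060, 5730 and 5140 CPM. The sums of 11 myeloid and 15 pancreas and gut genes overlapped between 0 and 72 h in both periods, and those of 13 endothelial genes in refractory tails, whereas in regeneration tails the latter lay between 232 and 247 CPM at 0 h and between 148 and 212 CPM at 72 h.

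**Figure D3:**
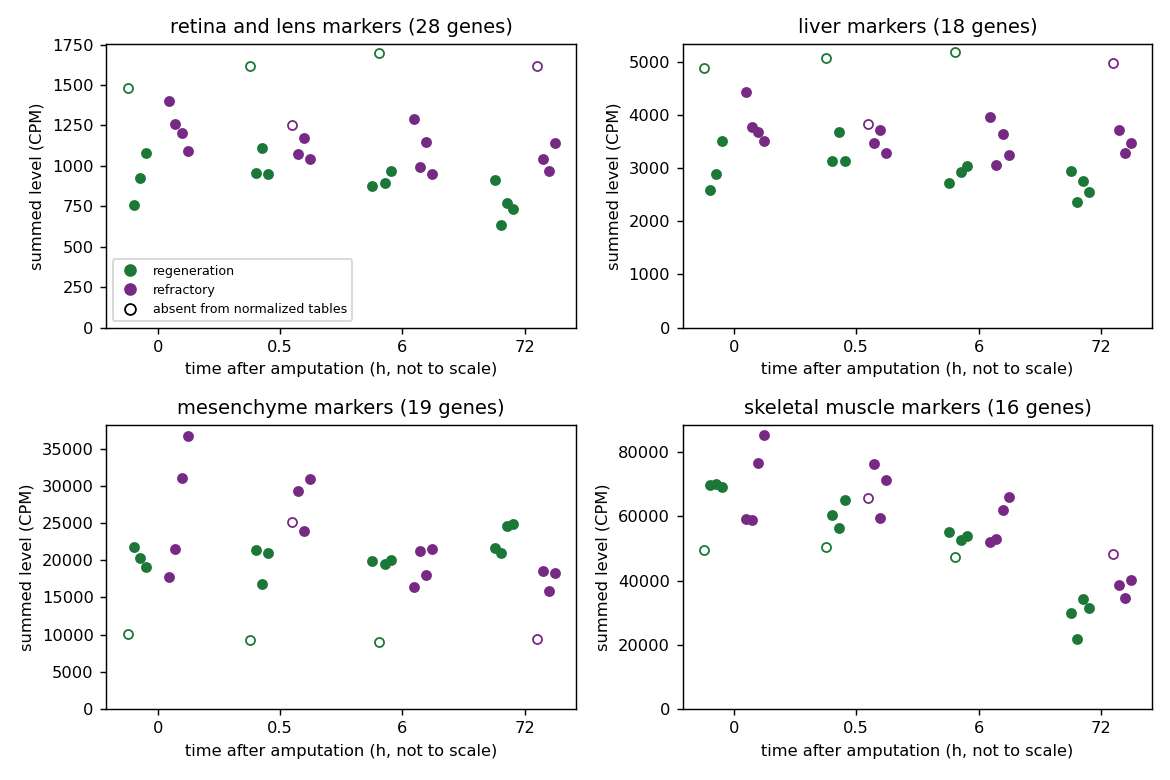
Summed level in CPM (linear axes from 0) of retina and lens, liver, mesenchyme and skeletal muscle genes in each library, by time and period. Open points are the 5 libraries absent from the normalized tables. Each of these 5 has the highest retina and lens sum and liver sum of its group, and 4 of them have the lowest mesenchyme sum.

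The genes whose pattern over the 32 libraries was most like that of fn1.S were LOC121393057 (r = 0.963), tgfbi.L, sfrp2.L (0.913), mdk.L (0.901) and htra3.L (0.881). LOC121393057, an identifier without a gene name in the tables used, stood at 281 ± 52.7 CPM at regeneration 0 h, 507 ± 113 at 6 h and 1350 ± 328 at 72 h, and at 288 ± 34.0, 457 ± 66.0 and 1940 ± 1050 CPM in refractory tails. Its refractory 72 h libraries held 438, 2200, 2210 and 2900 CPM, again with library A apart. sfrp2.L codes for a secreted modulator of Wnt signalling and stood at 170 ± 20.4 CPM at regeneration 72 h against 77.5 ± 12.6 at 0 h. In refractory tails it reached 108, 585, 310 and 623 CPM at 72 h against 59.7 ± 8.80 at 0 h. mdk.L, the gene of the heparin-binding growth factor midkine, stood at 1990 ± 291 CPM at regeneration 72 h and 1550 ± 372 at refractory 72 h, against 1070 ± 50.9 and 1030 ± 92.9 at 0 h. htra3.L codes for a secreted serine protease and had means of 15.2 ± 4.42 (0 h) and 46.7 ± 12.0 CPM (72 h) in regeneration tails, and of 15.7 ± 3.90 and 41.9 ± 17.8 CPM in refractory tails.

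Most like tgfbi.L were fn1.S, LOC121393057 (r = 0.920), angptl2.S (0.903), crip1.L (0.897) and LOC108703573 (0.896). angptl2.S, of the secreted angiopoietin-like family, stood at 89.9 ± 12.2 CPM at regeneration 0 h and 182 ± 34.8 at 72 h, and at 99.4 ± 13.9 and 211 ± 43.5 CPM in refractory tails. crip1.L, which codes for a small LIM domain protein, stood at 22.4 ± 2.71 and 85.5 ± 49.1 CPM at regeneration 0 and 72 h. Over the 27 libraries r with these genes ran from 0.895 for LOC108703573 to 0.944 for angptl2.S. Within groups, the genes closest to fn1.S were LOC121393057 (r = 0.936), ankfn1l.L, tgfbi.L, mdk.L and psmg2.L, and those closest to tgfbi.L were fn1.S, tns4.L (0.843), smim22.L, LOC121393057 and LOC108699999. Over the 27 libraries these values lay between 0.164 and 0.681. tns4.L, of the tensin family of focal adhesion proteins, stood at 28.3, 1.34, 34.1 and 27.6 CPM at regeneration 6 h and at 1.26, 43.2, 41.4 and 65.3 CPM at refractory 72 h, lowest in the library named above in each group.

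Other genes of the provisional matrix and the clot were taken as a list, of which 59 were tested. The list also holds further matrix genes, such as those of microfibrils, fibulins and crosslinking enzymes. Its shares are therefore not those of provisional matrix and clot genes alone. The tests are those of the edgeR model over all genes, and comparisons within a period share their 0 h libraries. This list and those of receptor and TGF-beta pathway genes below were chosen with earlier results of these data known. Their shares and calls describe the listed genes and are no independent support. At 72 h in the regeneration period 5 of 59 rose and 4 fell, 15.3% against 3.85% of all genes, with a median log2 change of 0.14 against 0.02 for all genes. The rises included tnn.L, the gene of the matricellular protein tenascin-N (1.77 ± 0.37, adjusted p = 0.00429), fbln1.L, the gene of fibulin-1, which binds fibronectin (1100 ± 60.0 against 615 ± 61.2 CPM, 0.84 ± 0.10, adjusted p = 2.92e-09), and mfap2.S, a microfibril gene (1.01 ± 0.12, adjusted p = 5.99e-09). The falls included thbs4.S, a thrombospondin gene of tendon and muscle attachment (-1.42 ± 0.23, adjusted p = 4.34e-05), tgm2.L, the gene of a transglutaminase that crosslinks fibronectin (-1.19 ± 0.15, adjusted p = 2.64e-08), and the fibrinogen chain gene fgb.L (-1.02 ± 0.29, adjusted p = 0.0238). fgb.L stood at 51.9, 24.3, 18.2 and 30.8 CPM at regeneration 0 h and at 15.6 ± 5.78 CPM at 72 h. Without library A, which is absent from the normalized tables, its 0 h mean was 24.5 ± 6.33 CPM (n = 3). That library also had the highest liver sum of its group, and the part of liver RNA in this fall was not tested. In the refractory period 2 of 59 rose at 72 h, 3.39% against 1.65%, and the median log2 change was 0.03. They were the collagen crosslinking enzyme gene lox.S (1.09 ± 0.27, adjusted p = 0.0153) and thbs1.S (0.69 ± 0.19, adjusted p = 0.0426). The lox.S call was lost in 5 of 8 fits without 1 library and that of thbs1.S in 7 of 8 (adjusted p up to 0.202). With 27 libraries 7 of 60 rose, where 3.48% of all genes were called against 1.65% with all libraries.

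At 6 h matrix genes other than fn1.S and tgfbi.L were called as higher. In regeneration tails the log2 change of fn1.S at 6 h was 0.38 ± 0.21, called only with 27 libraries (0.48 ± 0.10). In that fit 1.51% of all genes were called there. thbs1.L, the gene of thrombospondin-1, which can activate latent TGF-beta, stood at 46.0 ± 16.8 against 18.2 ± 6.22 CPM in regeneration (1.35 ± 0.27, adjusted p = 0.00759) and at 48.7 ± 10.5 against 20.3 ± 2.05 CPM in refractory tails (1.26 ± 0.27, adjusted p = 0.00198). In all 2 of 59 genes rose at regeneration 6 h, 3.39% against 0.273% of all genes, and 3 rose and 1, fstl1.L, fell at refractory 6 h, 6.78% against 2.45%; the call of fstl1.L was lost in 4 of 8 fits without 1 library. The list medians were -0.15 and -0.18 on the log2 scale. The regeneration call of thbs1.L was lost in 2 of 8 such fits, those lacking 6 h A or 6 h D (adjusted p up to 0.0588), and without 6 h A the list had 0 calls there. At 0.5 h both homeologs of ccn1, an immediate early matricellular gene, rose in refractory tails, ccn1.L from 67.8 to 162 CPM in group means (1.26 ± 0.19, adjusted p = 1.16e-05), and the call of ccn1.S (1.37 ± 0.28, adjusted p = 0.00912) was lost in 4 of 8 fits. These were 2 of 59 genes, 3.39% against 0.132%, and the response did not pass as different between the periods for either homeolog (adjusted p = 1). In regeneration tails ccn1.L had means of 54.9 ± 5.32 (0 h) and 89.7 ± 29.8 CPM (0.5 h; log2 change 0.71 ± 0.19, adjusted p = 0.378). No gene of the list was called there, with 4 at an unadjusted p under 0.05 and 0 called by DESeq2. However, 1 was called without 0.5 h A or with 27 libraries, where 0.13% of all genes were called.

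At refractory 6 h, when fn1.S overlapped its 0 h values, receptor genes had risen. Of 41 tested genes of fibronectin and RGD receptors and their adaptors 7 rose at refractory 6 h, 17.1% against 2.45% of all genes, with a median log2 change of 0.06. sdc1.L, the gene of the heparan sulfate co-receptor syndecan-1, stood at 692 ± 80.0 against 93.4 ± 22.6 CPM at 0 h (2.88 ± 0.25, adjusted p = 2.33e-08), and the syndecan-4 gene sdc4.L at 47.0 ± 17.4 against 11.2 ± 6.56 CPM (adjusted p = 0.00293). Both homeologs of itgb1, the β1 chain, rose: itgb1.S stood at 262 ± 55.0 against 106 ± 22.4 CPM (1.30 ± 0.18, adjusted p = 1.89e-06) and itgb1.L at 269 ± 56.1 against 136 ± 21.7 CPM (0.98 ± 0.22, adjusted p = 0.00896). itga5.L, the α5 chain, stood at 98.3 ± 23.4 against 34.9 ± 12.3 CPM (1.49 ± 0.36, adjusted p = 0.0206), a call lost in 5 of 8 fits without 1 library (adjusted p up to 0.0825). The adaptor genes fermt1.S and zyx.S rose too. Basal epidermis genes were higher in the same group, as given above, and their part in these rises was not tested. Without refractory 6 h B 4 of the list rose.

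At 72 h, when fn1.S and tgfbi.L were high, sdc1.L stood at 93.3 ± 9.64 CPM in regeneration and 100 ± 15.5 CPM in refractory tails, and itgb1.S at 145 ± 4.03 and 142 ± 35.2 CPM. No gene of the list was called at refractory 72 h, with 2 at an unadjusted p under 0.05 and 0 called by DESeq2. With 27 libraries 2 of 42 were, where 3.48% of all genes were called. At regeneration 72 h 2 of 41 fell, 4.88% against 3.85%: sdc3.L, a syndecan gene (adjusted p = 0.00483) and the integrin-linked adaptor gene parvb.S (-0.87 ± 0.16, adjusted p = 0.000158). Without regeneration 0 h A 4 genes were called. At regeneration 6 h 1 of 41 rose, sdc1.L at 214 ± 80.5 against 95.9 ± 18.5 CPM (1.16 ± 0.24, adjusted p = 0.0296), a call lost in 6 of 8 fits without 1 library (adjusted p up to 0.179). Library B of that group, absent from the normalized tables, stood at 96.1 CPM. Without it the 6 h mean of sdc1.L was 253 ± 21.1 CPM (n = 3) and the log2 change 1.41. No gene of the list was called at 0.5 h in either period, with 0 at an unadjusted p under 0.05 and 0 called by DESeq2.

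The α5 homeolog itga5.S lay between 2.92 and 6.48 CPM in group means and was not called. itgav.L, the αv chain, lay between 8.68 ± 5.41 and 17.5 ± 5.75 CPM and was not called either. Of the clot proteins, the fibrinogen genes fga.S, fgb.S and fgg.S and the vitronectin gene vtn.L were called in none of the 9 comparisons. fgb.S, for example, stood at 109 ± 46.8 CPM at regeneration 0 h and 77.3 ± 19.4 at 72 h. The matrix genes tnc.L, for tenascin-C, and vcan.L, for the proteoglycan versican, were not called: tnc.L lay between 111 ± 42.1 and 184 ± 70.3 CPM, and vcan.L stood at 370 ± 61.4 against 253 ± 67.9 CPM at regeneration 72 and 0 h.

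TGF-beta and activin signalling is the pathway after which tgfbi is named. Its gene list, pmepa1 and inhba included, was chosen with earlier results of these data known. The shares and calls below are therefore no independent support. Of the 47 listed genes tested, 2 rose at regeneration 6 h (4.26% against 0.273% of all genes, median log2 change 0.23). At refractory 6 h 7 rose (14.9% against 2.45%, median 0.37). pmepa1, a TGF-beta target that restrains the pathway, gave both regeneration calls: pmepa1.S stood at 65.3 ± 31.9 against 13.6 ± 1.60 CPM (2.26 ± 0.31, adjusted p = 0.00043) and pmepa1.L at 71.0 ± 30.6 against 26.7 ± 7.22 CPM (1.41 ± 0.25, adjusted p = 0.0031). Library B of regeneration 6 h, absent from the normalized tables, was lowest in both, at 21.2 and 37 CPM. With 27 libraries 5 of 47 genes rose at regeneration 6 h and 9 at refractory 6 h, where 1.51% and 4.13% of all genes were called. At refractory 6 h pmepa1.L reached 185 ± 39.5 from 29.5 ± 2.46 CPM (2.64 ± 0.25, adjusted p = 2.35e-10), and the activin subunit gene inhba.L, the corepressor gene tgif1.L and the signal transducer gene smad3.L rose too. The call of smad3.L, at 14.5 ± 7.55 against 2.14 ± 2.39 CPM, was lost in the fits lacking 0 h C, 0 h D or 6 h B (adjusted p up to 0.0908). At refractory 6 h fn1.S and tgfbi.L stood at 768 ± 13.8 and 499 ± 49.4 CPM.

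At 72 h 7 of 47 pathway genes rose in regeneration tails (14.9% against 3.85%, median 0.40) and 2 in refractory tails (4.26% against 1.65%, median 0.25). The refractory count was 4 without refractory 72 h A and 6 with 27 libraries, where 3.48% of all genes were called. The gene of the latent TGF-beta binding protein ltbp3.S, a matrix protein that holds the inactive growth factor, stood at 75.7 ± 17.9 against 15.2 ± 3.96 CPM in regeneration (2.31 ± 0.26, adjusted p = 1.73e-09) and at 67.4 ± 30.3 against 26.7 ± 8.91 CPM in refractory tails (adjusted p = 0.00107). ltbp1.L (138 ± 16.3 against 65.8 ± 15.2 CPM, adjusted p = 0.00228) and the ligand gene tgfb1.L (42.8 ± 1.87 against 20.6 ± 4.03 CPM, adjusted p = 0.0139) rose in the regeneration period. pmepa1.L stood above 0 h in both periods at 72 h, at 57.6 ± 5.94 CPM (1.11 ± 0.25, adjusted p = 0.00299) and 68.3 ± 24.6 CPM (1.21 ± 0.25, adjusted p = 0.00295). Its homeolog pmepa1.S was called at regeneration 72 h (2.00 ± 0.31, adjusted p = 4.5e-05) but not at refractory 72 h (1.03 ± 0.31, adjusted p = 0.09). The difference in response of pmepa1.S was not called (-0.97 ± 0.44, adjusted p = 0.544). No pathway gene was called at 0.5 h, with 5 at an unadjusted p under 0.05 in regeneration and 1 in refractory tails and 0 called by DESeq2.

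**Figure D4:**
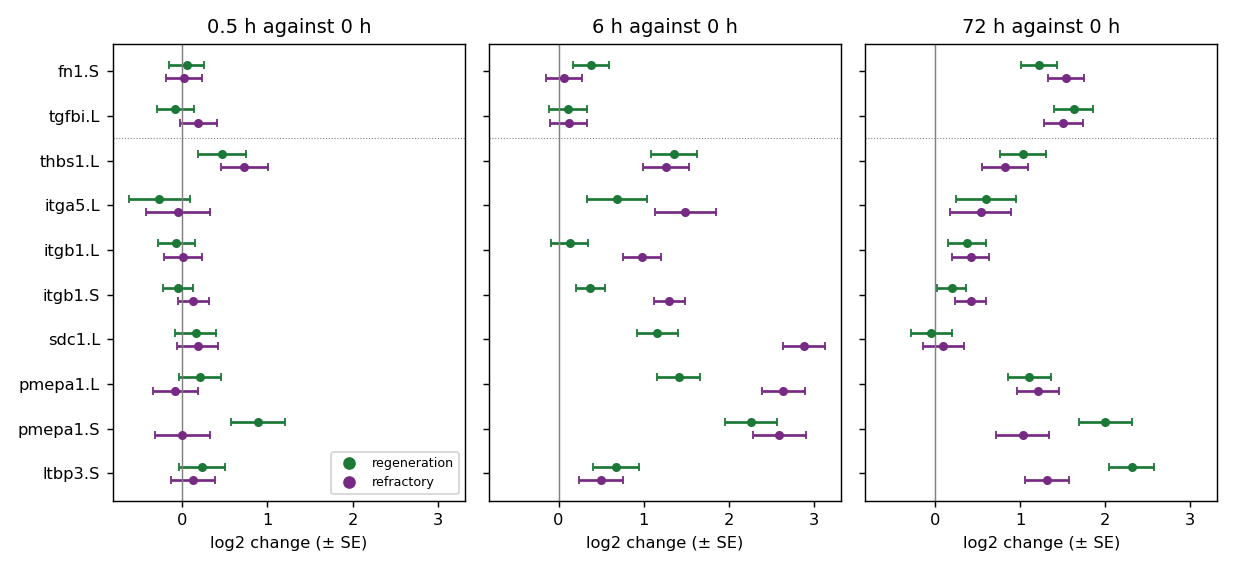
Log2 change from 0 h with its SE at 0.5, 6 and 72 h for fn1.S and tgfbi.L, above the dotted line, and for matrix, receptor and TGF-beta pathway genes below it, in the 2 periods. Each gene below the line was called as higher than at 0 h at some time. Genes called as lower, such as thbs4.S and tgm2.L, and uncalled genes are not shown. At 6 h sdc1.L stood at 2.88 and pmepa1.L at 2.64 in refractory tails while fn1.S and tgfbi.L stood at 0.06 and 0.12, and at 72 h fn1.S and tgfbi.L stood between 1.22 and 1.63.

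For these other genes the difference in response between the periods was itself tested. None of the TGF-beta list was called at 0.5, 6 or 72 h, with 2, 3 and 5 genes at an unadjusted p under 0.05 and 0 called by DESeq2 at each time. Leaving out regeneration 6 h D or refractory 0 h A gave 1 call at 6 h. In the receptor list 1 of 41 differed at 6 h, sdc1.L, and 1 at 72 h, parvb.S (2.44% each, against 0.0612% and 0.466% of all genes), both calls lost in several fits without 1 library, and 0 at 0.5 h, with 0 at an unadjusted p under 0.05 and 0 called by DESeq2. In the matrix list 3 of 59 differed at 72 h, 5.08% against 0.466%. The difference in response, refractory minus regeneration, was positive for tgm2.L and negative for fbln1.L and mfap2.S. tgm2.L went from 256 ± 70.6 CPM at 0 h to 112 ± 14.0 at 72 h in regeneration tails. In refractory tails it went from 161 ± 16.7 to 143 ± 24.5 CPM, so its positive difference is a smaller fall. With 27 libraries 4 differences were positive and 2 negative, where 0.83% of all genes were called. With DESeq2 1 was positive and 4 were negative. None of that list differed at 0.5 h or 6 h, with 3 and 1 at an unadjusted p under 0.05 and 0 called by DESeq2.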

How the data were processed

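Total RNA of tails was sequenced after preparation of 100 ng with the Lexogen SENSE Total RNA-Seq kit as paired reads of 76 bases, per the labels' protocols. STAR 2.7.9a and HTSeq 0.6.1p1 are named in the submitters' processing notes, beside R 4.1.0 and DESeq2 1.32.0. No positions are reported: the genome build, like the settings, is not given in the sources used here. The deposited raw tables hold unnormalized counts of reads for each gene. The authors' normalized tables hold a signal, each column being the raw counts divided by 1 size factor, and were used only to identify their 27 libraries. How reads shared by homeologs were assigned is not stated, so levels of genes with a near-identical copy are uncertain.

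The 27467 genes listed for both periods were analysed in R 4.3.3 with edgeR 4.0.16: TMM scaling, filterByExpr by group (21231 genes tested), and 1 robust quasi-likelihood model of the 8 groups over 32 libraries with 24 residual degrees of freedom. P-values are two-sided and Benjamini-Hochberg adjusted over all genes of a contrast, and called below 0.05. CPM are scaled to TMM library sizes. Lists were matched by symbol, ignoring .L and .S. Likeness is Pearson's r of log2(CPM + 1), as a description. From each list and contrast up to 4 called genes with the largest change were named, plus a panel of 10 symbols and the 5 most alike genes for each measure; further called genes were named after their values were seen. The genes followed and the lists were chosen with earlier results of these data known. The model was tested on simulated data. No source states separate clutches, so p-values measure the spread between libraries as labelled. DESeq2 1.42.0, RLE scaling, no filter, a replicate block, a fit per period, the 27 libraries and single-library omissions were tried. Totals per library ran from 1868637 to 4022871 counts. A library held 1474 to 10396 counts of fn1.S and 868 to 5983 of tgfbi.L. Some genes counted in the lists are not reported here by name.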

Additional observations from a re-analysis of the deposited data

Results flagged for a closer look

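A difference between the periods in the response to amputation was called for 5 genes of the lists, by the edgeR test of the difference itself. The fibulin-1 gene fbln1.L had a difference at 72 h of -0.80 ± 0.14 (log2, refractory minus regeneration, adjusted p = 0.000228), with 615 ± 61.2 and 1100 ± 60.0 CPM at regeneration 0 and 72 h and 724 ± 69.2 and 745 ± 116 CPM in refractory tails, and the call was kept in all 16 omissions of a library. The microfibril gene mfap2.S had a difference of -0.76 ± 0.17 (adjusted p = 0.0114), lost only without regeneration 72 h B (adjusted p = 0.0565). The transglutaminase gene tgm2.L had a difference of 1.02 ± 0.21 (adjusted p = 0.00378), kept in all 16 omissions. The adaptor gene parvb.S had a difference of 0.97 ± 0.23 (adjusted p = 0.022), lost in 8 of 16. The syndecan gene sdc1.L had a difference at 6 h of 1.72 ± 0.33 (adjusted p = 0.0404), lost in 12 of 16. Over the omissions this difference ran from 1.47, without regeneration 6 h B, to 1.86. By Dixon's criterion on CPM, 0 of 16 sets of 4 libraries (each of the genes fn1.S and tgfbi.L in each of 8 groups) held a library outside the others. On the log2(CPM + 1) scale, tried after seeing the data, 1 of 16 did: tgfbi.L at refractory 72 h, where the gap of library A to the next was 0.891 of the range, against 0.824 in CPM. The 2 genes were chosen by these same levels, so neither count is set against a chance rate. With 4 libraries only a gap of most of the range counts, so the criterion cannot show that a library is ordinary. For fn1.S, refractory 72 h A was not flagged at 894 CPM, against 2360 to 2900 CPM in libraries B to D. That gap was 0.73 of the range in CPM. This library is 1 of the 5 absent from the normalized tables.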

How the results depend on the processing

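The log2 changes of fn1.S and tgfbi.L over 9 comparisons moved by less than the SD between libraries under DESeq2, RLE scaling, no filter, the replicate block, the 27 libraries and each omission, and over the 6 comparisons with 0 h in the fit per period, which gives no difference between periods. This SD includes refractory 72 h A, which widens it, so at refractory 72 h it is a weak measure of that library's effect. With the 27 libraries fn1.S gained calls and the tgfbi.L difference at 72 h changed sign, as given above. At 72 h fn1.S ran from 1.13 to 1.34 in regeneration and from 1.36 to 1.80 in refractory tails over the omissions, and tgfbi.L from 1.58 to 1.72 and from 1.37 to 1.78. RLE scaling changed no list count by more than 1.5 times. The causes of the changes below were not tested. Omissions and the 27 libraries also use fewer samples.

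With DESeq2 5 matrix genes differed between the periods at 72 h. Without the filter 1 matrix gene was called at refractory 72 h and 0 receptor genes differed at 6 h. In the labels the repeats share only a letter. Of 48 correlations of same-letter deviations within a period 1 exceeded 0.1. It was 0.213, between the A libraries of regeneration 0 and 0.5 h, both absent from the normalized tables. The own letter, 1 of 4, was the best match in 35 of 96 comparisons, so a pairing is not settled. With the replicate block 0 receptor genes were called at regeneration 6 h and 0 differed at 6 h. In the fit per period 1 matrix gene and 0 receptor genes were called at regeneration 6 h.

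With 27 libraries the matrix list had 1 call at regeneration 0.5 h, 7 at refractory 72 h and 6 differences at 72 h. The receptor list had 2 at regeneration 6 h, 6 at regeneration 72 h, 2 at refractory 72 h, 3 differences at 6 h and 2 at 72 h. The TGF-beta list had 5 at regeneration 6 h and 6 at refractory 72 h. More of all genes were called in this fit too, 0.13% at regeneration 0.5 h and 1.51% at regeneration 6 h. At 72 h 5.18% were called in regeneration and 3.48% in refractory tails. Differences were called for 0.27% of all genes at 6 h and 0.83% at 72 h.

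Omissions of 1 library gave for the matrix list 0 to 1 at regeneration 0.5 h, 0 to 2 at regeneration 6 h, 1 to 2 at refractory 0.5 h and 0 to 3 at refractory 72 h. For the receptor list they gave 0 to 1 at regeneration 6 h, 2 to 4 at regeneration 72 h, 4 to 7 at refractory 6 h, and 0 to 1 differences at 6 h and at 72 h. For the TGF-beta list they gave 2 to 4 at refractory 72 h and 0 to 1 differences at 6 h. The planned share of fn1.L in the fn1 counts was not run, since fn1.L is not analysed here. Genes of a few CPM, such as smad3.L, are limited by depth.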
